A study of Mus musculus with 12 samples.

Results

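The comparison described here sets mouse intestinal organoids treated with chenodeoxycholic acid (CDCA) against organoids treated with cholic acid (CA). Its members are the libraries labelled CDCA (n = 3) and CA (n = 3), which make 6 of the 12 libraries of the study. Levels in the 3 libraries of the solvent dimethyl sulfoxide (DMSO) are given only for reference. The DMSO libraries and the remaining libraries, labelled DCA, also entered the row filter and the estimate of spread of the test per gene. Organoids are epithelial cultures grown from intestinal stem cells, and all groups were wild type (WT) cultures labelled as duodenum and kept in the same commercial growth medium. The label of each group gives its agent with "2 days", while the protocol gives culture for 2 days before an exposure of 96 hours, and it states 50 mmol/L for the acids, far above what cultured cells usually receive, so the unit may be an error. Expression was measured by sequencing of poly(A) RNA, and the deposited values are relative transcript abundances scaled for transcript length (TPM). Of 32587 gene rows, 11952 reached at least 1 TPM in at least 3 of the 12 libraries and were tested. The study holds 1 pair of compounds for this question, at the same labelled dose and time.

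Bile acids are detergents made from cholesterol in the liver and taken back up in the intestine. CA and CDCA are the primary bile acids that the liver makes, and CA carries an additional hydroxyl group, which makes it the more water-soluble of the pair. Both acids can reach nuclear receptors, above all the farnesoid X receptor (FXR, encoded by Nr1h4), which in the intestine switches on genes for bile acid carriage and the feedback hormone Fgf15, and CDCA is known as the stronger FXR agonist. The epithelium that receives them holds absorptive enterocytes, mucus-secreting goblet cells, hormone-secreting enteroendocrine cells, Paneth cells and the stem cells that renew them.

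Sequences before the start of 4 genes on which the results turn are shown to place them, 2 called genes (Gcg and Lgals2) and 2 FXR target genes that stood far above DMSO in both acids (Fabp6 and Slc51b). They are taken from RefSeq on GRCm38.p6, another build than the GRCm39 named for the deposited values, and run from 250 bases before to 50 bases after the start of the gene, 5′ to 3′ on the strand of the gene. Capitals mark matches to 3 motifs searched on both strands: GGTNA, 1 base and TNACC, the inverted repeat that FXR is known to bind, AGGTCA, a single nuclear receptor motif that can overlap it, and TATAAA, the TATA box.
Fabp6, chr11:43601513-43601812, minus strand: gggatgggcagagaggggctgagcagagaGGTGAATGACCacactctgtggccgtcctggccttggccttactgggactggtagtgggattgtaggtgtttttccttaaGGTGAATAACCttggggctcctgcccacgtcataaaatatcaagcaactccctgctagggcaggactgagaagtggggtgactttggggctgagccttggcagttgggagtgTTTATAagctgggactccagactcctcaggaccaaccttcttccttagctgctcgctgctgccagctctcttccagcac
Slc51b, chr9:65422724-65423023, minus strand: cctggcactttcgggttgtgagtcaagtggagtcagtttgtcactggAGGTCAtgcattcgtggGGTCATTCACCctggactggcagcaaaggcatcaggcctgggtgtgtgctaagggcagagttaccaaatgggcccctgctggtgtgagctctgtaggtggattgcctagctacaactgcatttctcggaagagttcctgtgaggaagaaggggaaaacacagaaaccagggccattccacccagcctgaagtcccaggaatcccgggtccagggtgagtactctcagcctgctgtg
Gcg, chr2:62483604-62483903, minus strand: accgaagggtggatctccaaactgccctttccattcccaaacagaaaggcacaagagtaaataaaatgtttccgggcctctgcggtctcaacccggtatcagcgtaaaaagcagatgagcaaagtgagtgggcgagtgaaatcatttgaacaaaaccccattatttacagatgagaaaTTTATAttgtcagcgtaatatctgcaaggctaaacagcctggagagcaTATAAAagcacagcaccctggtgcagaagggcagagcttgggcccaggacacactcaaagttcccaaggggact
Lgals2, chr15:78855480-78855779, minus strand: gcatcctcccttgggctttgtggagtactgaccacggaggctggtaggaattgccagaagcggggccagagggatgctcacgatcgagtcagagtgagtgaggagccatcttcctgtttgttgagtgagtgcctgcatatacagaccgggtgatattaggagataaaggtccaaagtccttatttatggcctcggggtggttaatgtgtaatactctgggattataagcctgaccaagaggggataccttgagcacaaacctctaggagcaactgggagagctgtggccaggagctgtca
The inverted repeat was found in Fabp6 at 221 and 141 bases before the start and in Slc51b at 186 bases before it, and it was present in 86 of 32851 promoters of the same length (0.262%). The windows of 2 further FXR targets, Slc51a and Nr0b2, were searched but are not shown, and they held 0 inverted repeats. Slc51a held AGGTCA at 58 bases and Nr0b2 TATAAA at 28 bases before the start. AGGTCA was found in 16.3% of these promoters and TATAAA in 13.6%. Gcg held TATAAA at 72 and 24 bases before its start, and the Lgals2 window held none of the 3 motifs. A match describes the letters and does not show binding.

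The libraries held 899896 to 921052 TPM in the rows used, their sequencing depth is unknown, and 11568 to 11665 rows per library were at 1 TPM or more. Epithelial and duodenal markers were present in all 6, with Epcam at 697 to 774 TPM and the transcription factor Pdx1 at 9.11 to 10.5 TPM, and among defining markers of other cells Ptprc (leukocytes) was at no more than 0.0246 TPM and Col1a1 (mesenchyme) at no more than 0.513 TPM. Other markers of such cells were low but present, with Vim at 3.16 to 4.20 TPM, Cd68 at 2.29 to 3.31 TPM, Cd14 at 2.43 to 4.32 TPM and Lyve1 at 2.54 to 3.00 TPM. The immune markers summed to 8.39 to 8.89 TPM in CA and 6.22 to 7.88 TPM in CDCA (exact permutation p = 0.1), and their part in the results was not tested. The share of TPM in mitochondrially encoded genes was 13.99 ± 0.389% in CA and 15.9 ± 2.02% in CDCA (mean ± SD, n = 3), with p = 0.2 in an exact two-sided permutation test in which 0.1 is the smallest p possible. CDCA replicate 3 stood apart from the other CDCA libraries. Over all tested genes its root mean square log2 difference was 0.400 from replicate 1 and 0.345 from replicate 2. That between replicates 1 and 2 was 0.274, and those within CA were 0.279 to 0.318. From the CA libraries CDCA replicate 3 differed by 0.280 to 0.318, less than from either other CDCA library. CDCA replicates 1 and 2 differed from the CA libraries by 0.308 to 0.394, so these distances did not separate the libraries by acid. Medians of gene lists that moved by over 1.5 times without CDCA replicate 3 are given both ways. Whether replicates were separate cultures or separate mice is not stated by the labels. The p-values here measure only the spread among the libraries used in each test, which may be technical.

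The acids differed in few genes. At an adjusted p under 0.05 (limma on log2(TPM + 1), two-sided, Benjamini-Hochberg adjustment over all tested genes), 4 genes differed, 0.0335% of those tested, with 1 higher in CDCA (0.00837%) and 3 lower (0.0251%). Differences are given as CDCA minus CA in log2(TPM + 1), a scale that understates the change of genes with low values, with a 95% confidence interval (CI). At an unadjusted p under 0.05, 216 genes were higher (1.81%) and 645 lower (5.4%). In 501 genes (4.19%) the 3 CDCA libraries all lay above the 3 CA libraries and in 773 (6.47%) all below. Of 11952 tested genes, 6062 had a difference below 0 and 5889 above. Counts for the gene lists below are to be read beside these shares. Members of a list come from the same libraries and are not independent. The median absolute difference over all tested genes was 0.097, and the CI lay within 1 log2 unit either side of 0 for 11469 genes (96.0%) and within 0.5 for 8644 (72.3%). Without CDCA replicate 3, 34 genes were called, 2 higher (0.0167%) and 32 lower (0.268%), and the 4 genes called with all libraries were among them.

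**Figure D1:**
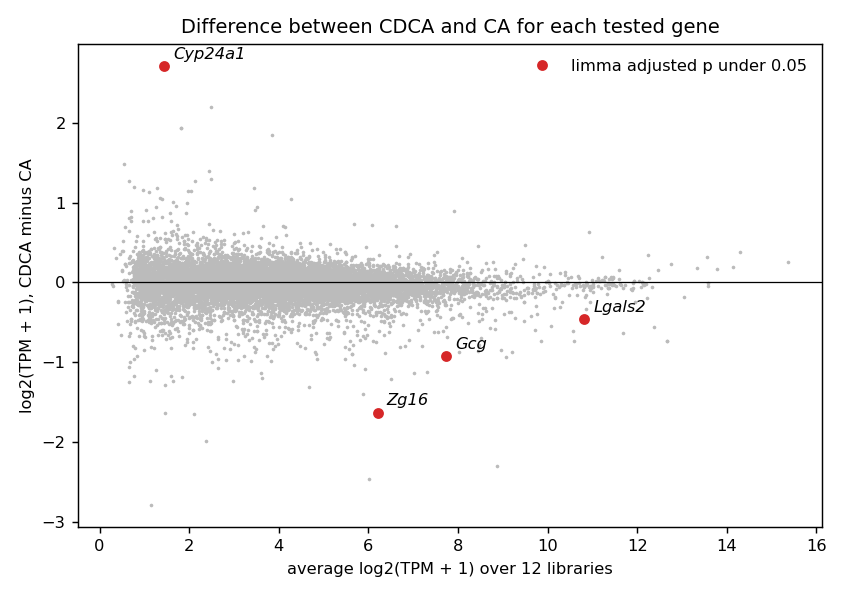
Difference between CDCA and CA in log2(TPM + 1) for each of 11952 tested genes (vertical axis) against its average over the 12 libraries (horizontal axis), with genes at a limma adjusted p under 0.05 in red. Cyp24a1 lies above 0 and Lgals2, Gcg and Zg16 below, and points as far from 0 that are not red did not pass the test.

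Cyp24a1, which encodes the enzyme that inactivates the hormonal form of vitamin D, was the 1 gene that was higher in CDCA. It was listed at 0 TPM in all 3 CA libraries, at 5.59, 5.05 and 6.08 TPM in CDCA replicates 1 to 3, and at 0, 0 and 0.668 TPM in DMSO. All 3 CDCA libraries thus held the transcript and no CA library did, at the sensitivity of these values, which carry no read depth. The difference was 2.71 (CI 2.31 to 3.12, limma adjusted p = 3.06e-05), and its size depends on the pseudocount because CA was listed at 0. Pfdn4, which overlaps Cyp24a1 on the opposite strand in the reference annotation, averaged 28.4 TPM in CA and 31.3 TPM in CDCA (difference 0.13, CI -0.18 to 0.44). Whether the quantification used strand is not given in the sources used here.

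The vitamin D receptor gene Vdr was at 80.3, 73.9 and 76.2 TPM in CA and at 70.3, 64.4 and 71.4 TPM in CDCA, without overlap of the groups and without passing the test (difference -0.16, CI -0.38 to 0.07, limma adjusted p = 0.795). Of 10 tested target genes of the receptor, Cyp24a1 was the 1 called, and the median difference was -0.11, or -0.27 without CDCA replicate 3, against -0.0027 over all genes. Cyp3a11, a drug-metabolising cytochrome and receptor target, was at 106, 61.9 and 83.2 TPM in CA and at 32.4, 34.1 and 76.6 TPM in CDCA (difference -0.88, limma adjusted p = 0.671). The groups overlapped through CDCA replicate 3. Cyp3a13, of the same family, was at 109, 82.6 and 114 TPM in CA and at 49.0, 51.0 and 109 TPM in CDCA, with CDCA replicate 3 at the value of CA replicate 1. The calcium channel gene Trpv6, a classical vitamin D target, did not reach the filter, and its highest value in these 6 libraries was 0.0759 TPM.

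**Figure D2:**
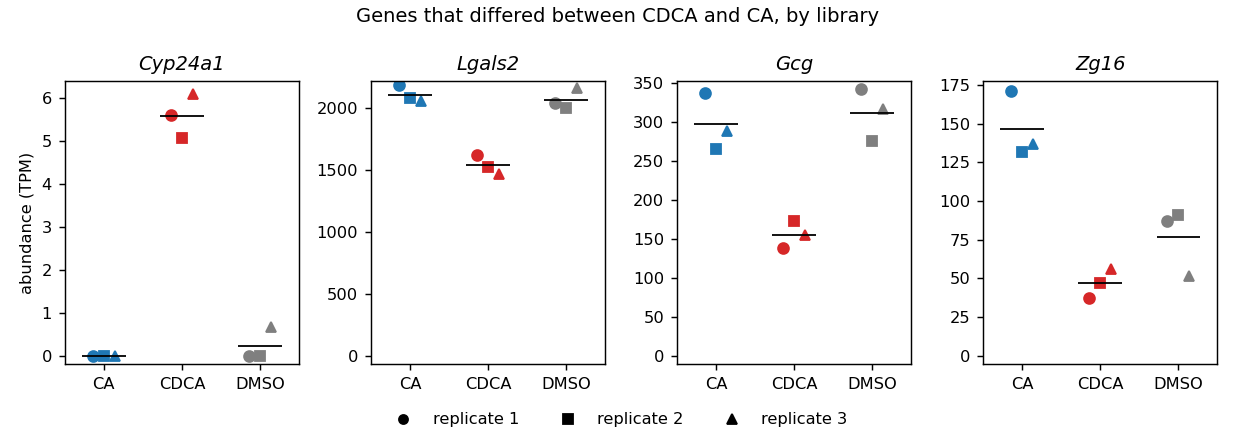
Abundance in TPM of the 4 genes that differed between CDCA and CA, by library, with the DMSO libraries for reference and a line at each group mean. Cyp24a1 is listed at 0 in every CA library, and for Lgals2, Gcg and Zg16 every CDCA library lies below every CA library.

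Lgals2 encodes galectin-2, a sugar-binding lectin of the intestinal epithelium, and was the most abundant of the 3 genes called lower in CDCA. It was at 2179, 2080 and 2055 TPM in CA, at 1618, 1524 and 1464 TPM in CDCA and at 2035, 1994 and 2155 TPM in DMSO. CA lay at the DMSO level and all CDCA libraries lay below both, with a CDCA mean 0.730 times the CA mean (difference -0.46, CI -0.57 to -0.34, limma adjusted p = 0.00425). Cdc42ep1, which overlaps Lgals2 on the opposite strand, averaged 13.2 TPM in CA and 16.9 TPM in CDCA. Of 6 tested galectin genes Lgals2 was the 1 called, and their median difference was -0.14, or -0.23 without CDCA replicate 3. Lgals4 was at 1414, 1184 and 1315 TPM in CA and at 1004, 971 and 1193 TPM in CDCA (difference -0.31, limma adjusted p = 0.487), with the groups overlapping through CDCA replicate 3. Lgals9, at 283, 264 and 268 TPM in CA and 227, 236 and 396 TPM in CDCA, did not separate the groups (difference 0.03, CI -0.33 to 0.39).

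Among genes of secretory cells, 11 of 12 tested enteroendocrine hormone genes had a difference below 0, and 1 of them passed the test. Gcg encodes proglucagon, the precursor of the glucagon-like peptides. It was at 337, 265 and 289 TPM in CA, at 139, 173 and 156 TPM in CDCA and at 343, 276 and 317 TPM in DMSO. The CDCA libraries all lay below CA and DMSO, which overlapped, and the CDCA mean was 0.524 times the CA mean (difference -0.93, CI -1.16 to -0.70, limma adjusted p = 0.00425). Fewer cells of a type and less RNA per cell cannot be told apart in bulk libraries such as these.

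Gip, the gene of glucose-dependent insulinotropic peptide, was at 403, 300 and 375 TPM in CA and at 202, 209 and 172 TPM in CDCA. The groups did not overlap, and the difference of -0.88 (CI -1.17 to -0.58) had a limma adjusted p of 0.0538. Somatostatin (Sst), a hormone that restrains other secretory cells, was at 262, 244 and 252 TPM in CA and at 156, 168 and 174 TPM in CDCA (difference -0.61, limma adjusted p = 0.0608). Ghrelin (Ghrl), a hormone of hunger signalling, was at 300, 282 and 266 TPM in CA and at 199, 199 and 217 TPM in CDCA (difference -0.46, limma adjusted p = 0.0608). For Ghrl the DMSO libraries, at 197, 192 and 198 TPM, lay with CDCA, whereas for Gcg, Gip and Sst they lay with CA. Antisense genes overlap Ghrl in the reference annotation, so its value is uncertain.

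Cholecystokinin (Cck), which triggers bile release from the gallbladder, was the most abundant hormone transcript, at 1173, 1070 and 1140 TPM in CA and 895, 857 and 814 TPM in CDCA (difference -0.40, CI -0.62 to -0.18, limma adjusted p = 0.390). Peptide YY (Pyy) was the exception to the direction, at 0.777, 0.835 and 1.06 TPM in CA and 1.72, 1.36 and 2.94 TPM in CDCA (difference 0.64, limma adjusted p = 0.556). Over the 12 tested hormone genes, 1 was called lower, and 8 were lower and 1 higher at an unadjusted p under 0.05. Without overlap of the groups 6 lay lower and 1 higher, against 6.47% and 4.19% of all tested genes. The median difference was -0.43, and it was -0.43 without CDCA replicate 3, when 4 members were called lower (Gcg, Ghrl, Sst and Gip). Without CA replicate 1 the limma adjusted p was 0.0330 for Gcg, 0.276 for Gip, 0.326 for Sst and 0.400 for Ghrl. The medians against the shared DMSO libraries were -0.012 for CA and -0.35 for CDCA. Summed over the list, hormone transcripts amounted to 2292 to 2602 TPM in CA and 1643 to 1719 TPM in CDCA (exact permutation p = 0.1, the smallest possible).

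Genes that enteroendocrine cells share had smaller differences. Chromogranin A (Chga), a granule protein, was at 154, 134 and 135 TPM in CA and at 150, 147 and 122 TPM in CDCA, with overlapping groups and a CI of -0.21 to 0.18. Secretogranin 2 (Scg2), another granule protein, was at 34.0, 26.3 and 33.0 TPM in CA and 22.9, 22.4 and 22.8 TPM in CDCA (difference -0.43, limma adjusted p = 0.487). Of 15 tested granin and hormone-processing genes 0 were called. At an unadjusted p under 0.05, 2 were lower and 0 higher, against 5.4% and 1.81% of all tested genes. Without overlap 5 lay lower and 0 higher, against 6.47% and 4.19% of all tested genes, and 13 differences were below 0. The median difference of this list was -0.16. Of 18 tested transcription factors of the lineage 0 were called, with 1 lower and 1 higher at an unadjusted p under 0.05, and their median of -0.086 became 0.021 without CDCA replicate 3. Among these factors 12 had a difference below 0, and without overlap 5 lay lower and 0 higher. Neurog3, the factor that starts the lineage, was at 7.38, 9.36 and 5.87 TPM in CA and 12.1, 10.5 and 8.23 TPM in CDCA (difference 0.41, limma adjusted p = 0.658), with overlapping groups. A test of hormone genes against granin genes was not made, and these medians are given side by side.

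Of 21 tested goblet cell markers 20 had a difference below 0, against 6062 of 11952 over all tested genes, and Zg16 passed the test. Zg16 encodes a mucus lectin that binds bacteria. It was at 171, 131 and 137 TPM in CA, at 37.3, 47.3 and 55.9 TPM in CDCA and at 86.9, 91.0 and 51.2 TPM in DMSO. Every CA library lay above every DMSO library, and CDCA overlapped DMSO, with a CDCA mean 0.320 times the CA mean (difference -1.63, CI -2.06 to -1.20, limma adjusted p = 0.00659).

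Fcgbp, a mucin-like protein of the mucus layer, was at 631, 493 and 501 TPM in CA and at 395, 343 and 354 TPM in CDCA (difference -0.57, limma adjusted p = 0.0608). Agr2, a disulfide isomerase that mucin folding needs, was at 276, 246 and 287 TPM in CA and at 178, 165 and 206 TPM in CDCA (difference -0.56, limma adjusted p = 0.0637). In both, the groups did not overlap and the adjusted p lay just above the threshold. Over 14 alternative settings the limma adjusted p ran from 0.0442 to 0.362 for Fcgbp and from 0.0182 to 0.490 for Agr2. Muc2, the gel-forming mucin of the intestine, was at 50.0, 37.3 and 47.5 TPM in CA and at 27.1, 24.3 and 30.3 TPM in CDCA (difference -0.70, CI -0.98 to -0.41, limma adjusted p = 0.163). Clca1, a protease that processes mucus, was at 10.9, 7.67 and 8.37 TPM in CA and at 5.81, 5.53 and 3.95 TPM in CDCA (difference -0.71, limma adjusted p = 0.328). Tff3, a trefoil peptide of epithelial repair, was the most abundant of those named here, at 2512, 2229 and 2253 TPM in CA and 1911, 1487 and 1647 TPM in CDCA (difference -0.48, limma adjusted p = 0.338).

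Over 21 tested goblet cell markers, 1 was called lower, and 18 were lower and 0 higher at an unadjusted p under 0.05. Without overlap 16 lay lower, against 6.47% of all tested genes. The median difference was -0.55, and also -0.55 without CDCA replicate 3, when Zg16 and Agr2 were called. Without CA replicate 1 the limma adjusted p was 0.0596 for Zg16 and 0.400 for Agr2. The medians against the shared DMSO libraries were 0.22 for CA and -0.30 for CDCA, so the DMSO level lay between the acids. Summed, the markers amounted to 6069 to 6784 TPM in CA and 4215 to 5129 TPM in CDCA (exact permutation p = 0.1, the smallest possible). Spdef, a transcription factor of goblet and Paneth cells, was at 12.4, 8.76 and 10.4 TPM in CA and 8.31, 4.98 and 7.48 TPM in CDCA (difference -0.55, limma adjusted p = 0.528), without overlap. Gal3st2, a sulfotransferase that acts on galactose, was at 5.38, 4.66 and 8.64 TPM in CA and 0.805, 0.922 and 2.26 TPM in CDCA (difference -1.65, limma adjusted p = 0.0608). Gal3st2 has related copies, between which the quantification could split reads, so its value is uncertain, and Gal3st2b differed by -0.46 (limma adjusted p = 0.693).

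**Figure D3:**
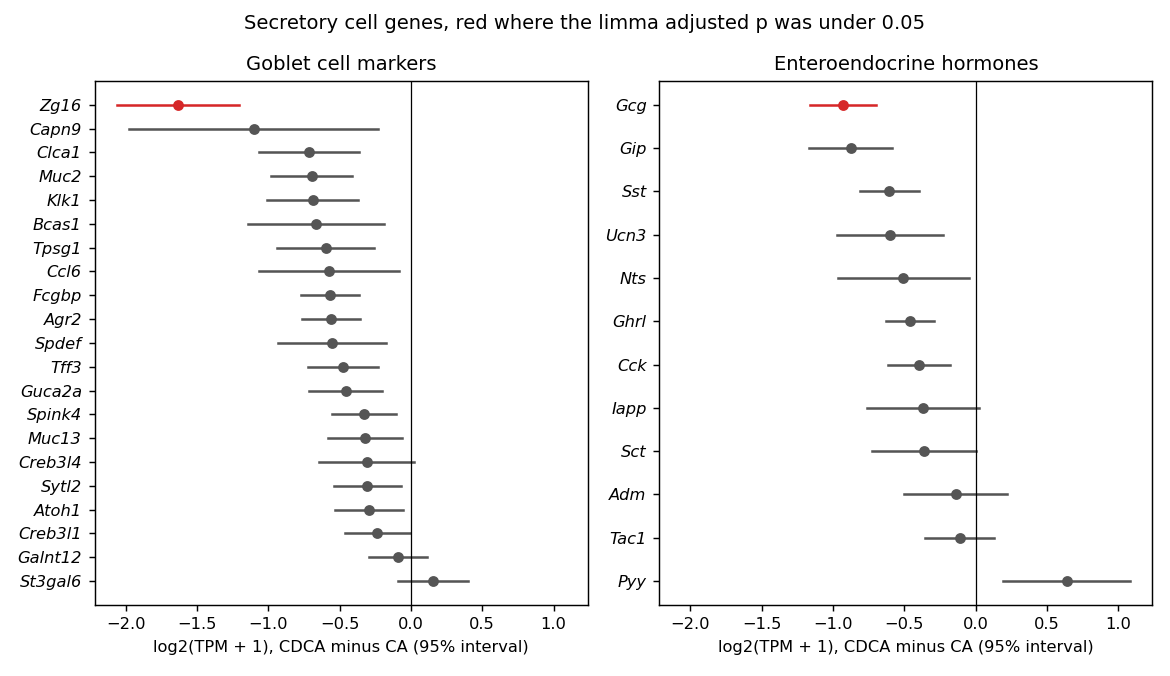
Difference between CDCA and CA in log2(TPM + 1) (horizontal axis) with its 95% CI for 21 goblet cell markers and 12 enteroendocrine hormone genes, in red where the limma adjusted p was under 0.05. Zg16 and Gcg pass the test, and all but St3gal6 and Pyy lie below 0.

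Paneth and tuft cell genes had medians nearer to 0. Of 17 tested Paneth cell markers 0 were called, and 3 were higher and 1 lower at an unadjusted p under 0.05. Without overlap 5 lay higher and 1 lower, against 4.19% and 6.47% of all tested genes. The median difference of the list was 0.15, or 0.24 without CDCA replicate 3. The defensin gene Defa23 was at 175, 196 and 205 TPM in CA and 486, 316 and 299 TPM in CDCA (difference 0.90, limma adjusted p = 0.551), without overlap, but defensin genes are near-identical copies between which reads could be split. Lysozyme (Lyz1), the antibacterial enzyme of Paneth cells, was at 295, 292 and 296 TPM in CA and 349, 248 and 233 TPM in CDCA (difference -0.11, CI -0.53 to 0.31). Of 10 tested tuft cell markers 0 were called and 0 had an unadjusted p under 0.05 (median difference -0.043, or -0.015 without CDCA replicate 3).

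Reg1, a secreted lectin of the regenerating family, had the largest difference among the genes named here that were not called. It was at 123, 66.9 and 100 TPM in CA, at 9.86, 13.1 and 32.5 TPM in CDCA and at 178, 73.6 and 96.4 TPM in DMSO. The groups did not overlap, and CDCA replicate 3 was the highest of its group. The difference of -2.46 (CI -3.41 to -1.50) had a limma adjusted p of 0.163. This became 0.0168 without CDCA replicate 3 and 0.963 without CA replicate 1. Reg3a, an antibacterial lectin of the same family, was at 18.1, 9.84 and 10.3 TPM in CA and 1.87, 5.32 and 9.68 TPM in CDCA (difference -1.20, limma adjusted p = 0.633). Of 14 tested Reg and antimicrobial genes 0 were called, 2 were lower and 0 higher at an unadjusted p under 0.05, and the median difference was -0.13. Without CDCA replicate 3 the median was -0.27 and 1 member, Reg1, was called lower.

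No FXR target gene passed the test between the acids. Fabp6, the bile acid carrier of the enterocyte cytosol whose promoter is shown above, was at 306, 138 and 276 TPM in CA, at 164, 197 and 755 TPM in CDCA and at 1.30, 2.31 and 0.971 TPM in DMSO. Both acids lay far above DMSO and overlapped each other, with CDCA replicate 3 the highest of all. The difference was 0.36 (CI -0.88 to 1.59, limma adjusted p = 0.938) and turned to -0.33 without that library. This interval leaves room for differences in either direction and does not show that the acids act alike.

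Slc51b, a subunit of the transporter that exports bile acids to the blood, was at 49.1, 31.8 and 55.7 TPM in CA and at 34.1, 35.7 and 93.2 TPM in CDCA (difference 0.13, CI -0.64 to 0.90), and its difference turned to -0.34 without CDCA replicate 3. Slc51a, the other subunit, was at 31.0, 18.6 and 27.97 TPM in CA and at 9.09, 15.0 and 38.8 TPM in CDCA (difference -0.50, CI -1.48 to 0.48). In both, CDCA replicate 3 was above and the other CDCA libraries were within or below the CA range. Fgf15, the hormone that reports bile acids to the liver, was at 9.61, 7.41 and 11.9 TPM in CA, at 14.1, 14.1 and 34.7 TPM in CDCA and at 1.88, 1.93 and 1.72 TPM in DMSO. It was the 1 target whose CDCA libraries all lay above CA, but the difference of 0.94 (CI 0.35 to 1.53) did not pass the test (limma adjusted p = 0.482). CDCA replicate 3 was the highest library, and the Fgf15 difference was 0.53 without it. Antisense genes overlap Fgf15 in the reference annotation.

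Nr0b2, a repressor that FXR induces, was at 3.46, 1.53 and 2.64 TPM in CA and 1.64, 1.25 and 2.48 TPM in CDCA (difference -0.33, CI -0.78 to 0.12). The receptor gene Nr1h4 was at 30.8, 23.1 and 29.6 TPM in CA and 16.3, 19.9 and 31.5 TPM in CDCA (difference -0.33, CI -0.80 to 0.14). Over 8 tested FXR targets 0 were called, 1 was higher and 1 lower at an unadjusted p under 0.05, and the median difference of -0.051 became -0.33 without CDCA replicate 3. The medians against the shared DMSO libraries were 1.19 for CA and 1.29 for CDCA. By library, the median deviation of these targets from their mean over the 6 libraries was 0.21, -0.23 and 0.17 in CA. In CDCA it was -0.33, -0.37 and 0.56, so CDCA replicate 3 stood apart. Of 8 tested genes of bile acid transport and conjugation, some of them FXR targets too, 0 were called and 0 had an unadjusted p under 0.05 (median difference -0.15, or -0.35 without CDCA replicate 3). The membrane bile acid receptor Gpbar1 and the ileal importer Slc10a2 did not reach the filter, with highest values of 0.0751 and 0.639 TPM among these 6 libraries.

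**Figure D4:**
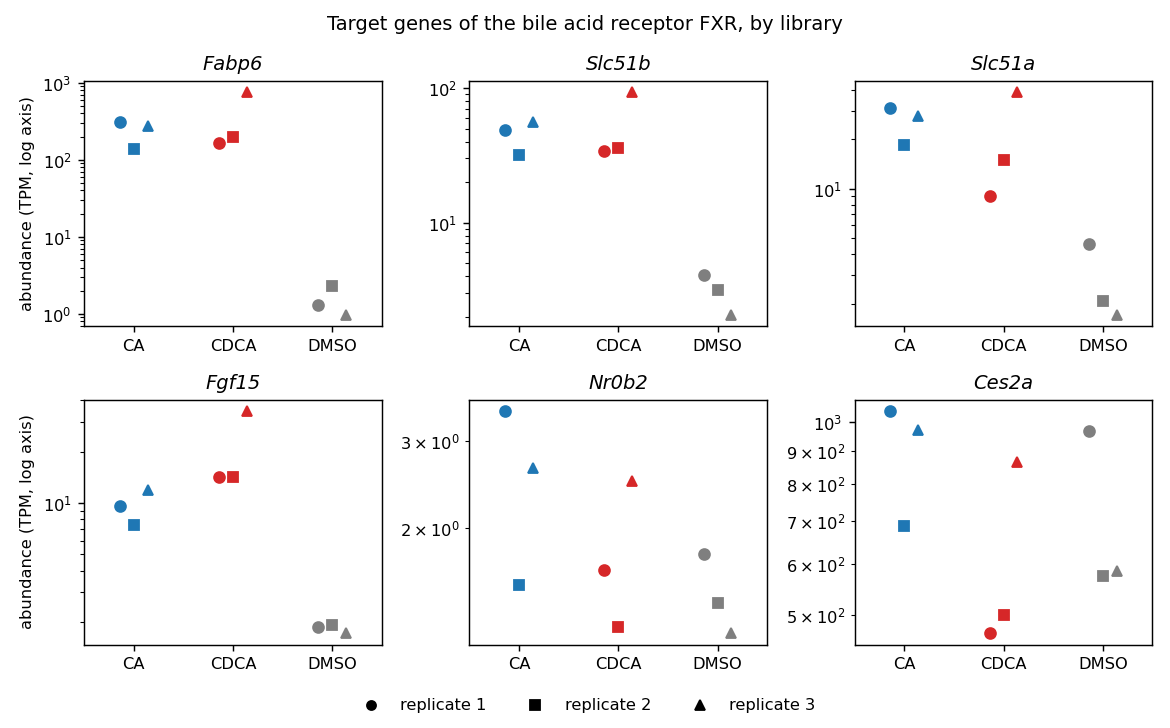
Abundance in TPM on a log axis of 6 FXR target genes by library, with the DMSO libraries for reference. Fabp6, Slc51b, Slc51a and Fgf15 lie above DMSO in both acids, and CDCA replicate 3 (triangle) is the highest of the 6 acid libraries for these 4 genes.

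Of 14 tested genes of bile acid and other nuclear receptors 0 were called with all libraries, and 1 was lower and 0 higher at an unadjusted p under 0.05. That gene was Nr1i3, the constitutive androstane receptor, a sensor of foreign compounds. It was at 36.3, 27.6 and 35.6 TPM in CA and at 18.4, 19.8 and 35.9 TPM in CDCA (difference -0.46, limma adjusted p = 0.671). CDCA replicate 3 lay within the CA range and the other CDCA libraries below it. Without CDCA replicate 3 the difference was -0.75 and the limma adjusted p 0.0407. Without CA replicate 1 they were -0.39 and 0.9998.

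No enterocyte marker passed the test, though all had a difference below 0, and their values in CDCA replicate 3 lay nearer to CA than those of the other CDCA libraries. Alpi, the brush border alkaline phosphatase, was at 103, 54.2 and 68.7 TPM in CA and at 28.5, 25.8 and 52.2 TPM in CDCA (difference -1.09, CI -1.71 to -0.46, limma adjusted p = 0.410). Rbp2, the retinol carrier of enterocytes, was at 145, 83.4 and 106 TPM in CA and at 34.4, 42.3 and 69.1 TPM in CDCA (difference -1.21, limma adjusted p = 0.401). Fabp1, a fatty acid carrier, was at 2084, 1234 and 1564 TPM in CA and at 961, 791 and 1156 TPM in CDCA (difference -0.73, limma adjusted p = 0.618). In these 3 genes the groups did not overlap, and CDCA replicate 3 was the highest CDCA library. Fabp2, the intestinal fatty acid carrier, was at 205, 143 and 169 TPM in CA and 83.3, 87.0 and 130 TPM in CDCA (difference -0.79, limma adjusted p = 0.414), also without overlap.

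Of 25 tested enterocyte markers 0 were called, and 15 were lower and 0 higher at an unadjusted p under 0.05. Without overlap 5 lay lower, against 6.47% of all tested genes. All 25 differences were below 0, with a median of -0.70 that became -0.97 without CDCA replicate 3, again with 0 called. Against the shared DMSO libraries the median was 0.62 for CA and -0.085 for CDCA. The median deviation of these markers from their mean over the 6 libraries was 0.58, 0.0067 and 0.38 in CA and -0.63, -0.64 and 0.21 in CDCA. CDCA replicate 3 thus lay above CA replicate 2. Summed, the markers amounted to 5002 to 7620 TPM in CA and 3436 to 5444 TPM in CDCA (exact permutation p = 0.2). The part of this shift between libraries in the other results was not tested.

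Stem cell markers all had a difference above 0, and none passed the test. Lgr5, the marker of cycling crypt stem cells, was at 39.4, 56.9 and 48.2 TPM in CA and at 75.3, 64.8 and 43.9 TPM in CDCA (difference 0.32, CI -0.12 to 0.77). Olfm4, a secreted crypt marker, was at 87.8, 159 and 83.8 TPM in CA and at 274, 245 and 77.5 TPM in CDCA (difference 0.71, CI -0.45 to 1.87). In both, CDCA replicates 1 and 2 lay above all CA libraries and CDCA replicate 3 lay within or below them. Of 18 tested stem cell markers 0 were called, 3 were higher and 0 lower at an unadjusted p under 0.05, and the median difference was 0.33, or 0.55 without CDCA replicate 3. Against the shared DMSO libraries the median of these markers was -0.46 for CA and -0.12 for CDCA. Mki67, which cells express while they cycle, was at 24.1, 25.0 and 23.9 TPM in CA and 32.3, 28.5 and 21.6 TPM in CDCA (difference 0.15, CI -0.16 to 0.46). Of 25 tested proliferation genes 0 were called, with 1 lower and 0 higher at an unadjusted p under 0.05 and a median of 0.14, or 0.26 without CDCA replicate 3.

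**Figure D5:**
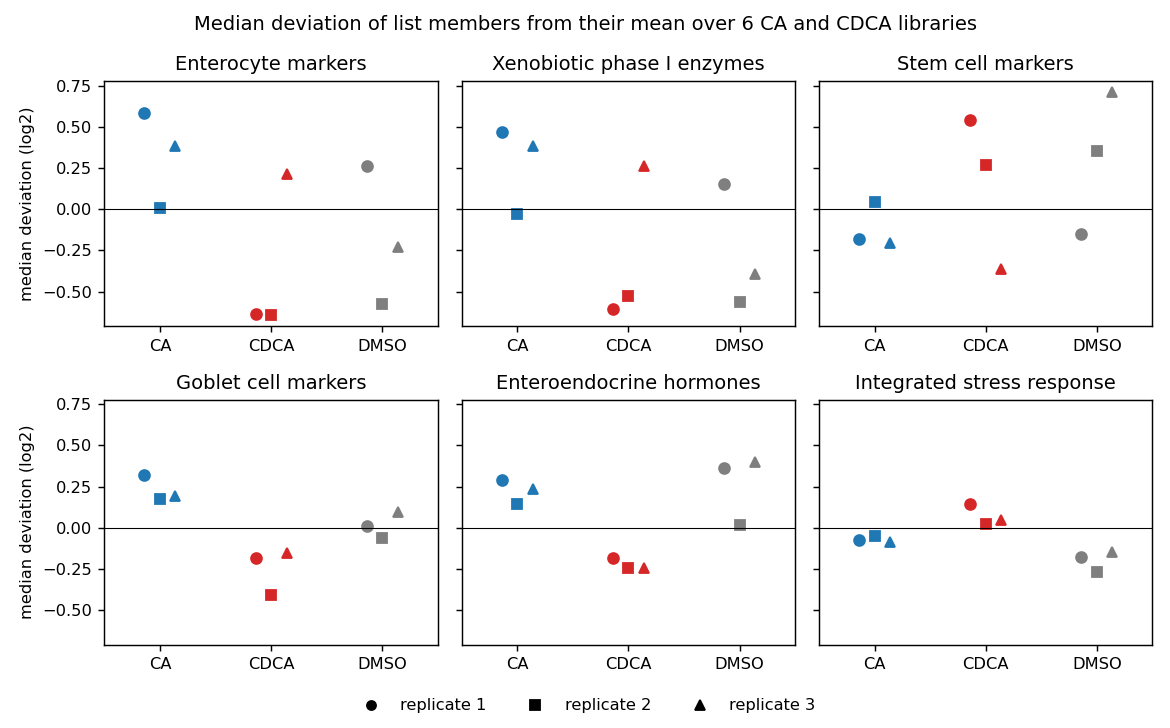
Median deviation in log2 units of the members of 6 gene lists from their mean over the 6 CA and CDCA libraries, by library, with DMSO for reference. For goblet cell markers, enteroendocrine hormones and stress response genes the CDCA libraries lie on one side of the CA libraries, and for enterocyte, xenobiotic and stem cell genes CDCA replicate 3 (triangle) lies apart from the other CDCA libraries.

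Genes of xenobiotic metabolism had the same direction as the enterocyte markers. Cyp2s1, a cytochrome of epithelial surfaces, was at 66.2, 60.2 and 67.0 TPM in CA and at 40.1, 41.5 and 56.6 TPM in CDCA. Its difference was -0.49 (limma adjusted p = 0.416, or 0.0491 without CDCA replicate 3 and 0.9998 without CA replicate 1). Gsta1, a glutathione transferase, was at 690, 494 and 572 TPM in CA and at 287, 276 and 418 TPM in CDCA (difference -0.85, limma adjusted p = 0.338). Neither overlapped between the groups. Gm3776, a near-identical copy of Gsta1, differed by -0.87, and reads could be split between the copies. Of 27 tested phase I enzymes 0 were called and 14 were lower and 0 higher at an unadjusted p under 0.05 (median -0.54, or -0.79 without CDCA replicate 3), and of 26 tested phase II enzymes 0 were called and 12 were lower and 0 higher (median -0.36). Against the shared DMSO libraries the phase I median was 0.55 for CA and 0.064 for CDCA. The phase II median was 0.35 for CA and 0.051 for CDCA.

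Genes of cholesterol synthesis and of fatty acid oxidation had medians below 0, while 19 tested genes of fatty acid synthesis had a median of 0.056, or 0.12 without CDCA replicate 3, with 3 higher and 4 lower at an unadjusted p under 0.05. Msmo1, an enzyme of cholesterol synthesis, was at 107, 106 and 113 TPM in CA and at 88.3, 78.3 and 81.5 TPM in CDCA (difference -0.39, limma adjusted p = 0.317). Insig1, a sterol sensor that is itself a target of the synthesis programme, was at 165, 151 and 158 TPM in CA, at 127, 114 and 126 TPM in CDCA and at 122, 100 and 109 TPM in DMSO (difference -0.37, limma adjusted p = 0.338). Both separated the groups, with CDCA replicate 3 among the other CDCA libraries. Of 25 tested genes of cholesterol synthesis and uptake 0 were called, and 11 were lower and 0 higher at an unadjusted p under 0.05. Without overlap 10 lay lower, against 6.47% of all tested genes. The median of the 25 was -0.21, or -0.18 without CDCA replicate 3. The medians of the 25 against the shared DMSO libraries were 0.18 for CA and -0.0100 for CDCA. Of 26 tested genes of fatty acid oxidation 0 were called and 8 were lower and 0 higher at an unadjusted p under 0.05, and the median was -0.20.

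Genes of the integrated stress response, which cells switch on when translation initiation is restrained, had a difference above 0 in 24 of 29 tested members, and none passed the test. Niban1, which stress signalling induces, was at 8.54, 8.78 and 8.35 TPM in CA, at 14.5, 13.4 and 13.5 TPM in CDCA and at 5.25, 3.22 and 2.39 TPM in DMSO. All CDCA libraries lay above CA and all CA libraries above DMSO, but the difference between the acids of 0.63 (CI 0.26 to 1.00) did not pass the test (limma adjusted p = 0.416). Ddit3, a transcription factor of the response, was at 38.6, 36.7 and 40.6 TPM in CA and 45.8, 46.1 and 47.6 TPM in CDCA (difference 0.26, limma adjusted p = 0.590). Trib3, a pseudokinase target of that factor, was at 32.1, 32.3 and 30.5 TPM in CA and 42.2, 39.0 and 34.5 TPM in CDCA (difference 0.27, limma adjusted p = 0.643). In both the groups did not overlap. Of 29 tested members 0 were called, and 7 were higher and 0 lower at an unadjusted p under 0.05. Without overlap 11 lay higher and 0 lower, against 4.19% and 6.47% of all tested genes. The median of the list was 0.13.

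Mitochondrially encoded genes had differences of both signs. ND5, a subunit of respiratory complex I, was at 4630, 4472 and 4480 TPM in CA and at 5413, 6156 and 5759 TPM in CDCA (difference 0.35, limma adjusted p = 0.393), without overlap. ATP6 was at 7484, 6008 and 7762 TPM in CA and 4581, 5274 and 4504 TPM in CDCA (difference -0.56), while Gm10925, a nuclear copy of it, averaged 17594 TPM in CA and 22859 TPM in CDCA (difference 0.38). Reads could be split between the copies, so neither value stands alone. Of the 13 mitochondrially encoded genes 0 were called, and 3 were higher and 1 lower at an unadjusted p under 0.05 (median 0.18).

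Besides Cyp24a1, no gene higher in CDCA passed the test with all libraries and all tested rows, and those with the smallest p are given as values. Prelp, a matrix proteoglycan, was at 1.18, 1.34 and 1.67 TPM in CA and at 3.77, 3.12 and 5.05 TPM in CDCA (difference 1.04, CI 0.67 to 1.42, limma adjusted p = 0.0608), without overlap. Cps1, the enzyme that feeds ammonia into the urea cycle, was at 253, 264 and 260 TPM in CA, at 341, 308 and 310 TPM in CDCA and at 211, 195 and 219 TPM in DMSO (difference 0.30, limma adjusted p = 0.270, or 0.0415 with mitochondrial and rRNA rows left out). Igfbp2, which binds insulin-like growth factors, was at 11.8, 12.7 and 11.5 TPM in CA and at 17.6, 18.6 and 15.7 TPM in CDCA (difference 0.49, limma adjusted p = 0.198). All 3 separated the groups. Steap1, a membrane protein of the STEAP family, differed by 0.62 (limma adjusted p = 0.215, or 0.0468 without CDCA replicate 3 and 0.993 without CA replicate 1). The centrosomal gene Cep162 differed by 0.88 (limma adjusted p = 0.328) and the adhesion gene Esam by 0.61 (0.396). Slc45a4 differed by 0.42 and Rccd1 by 0.71, both with a limma adjusted p of 0.390.

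Of the 34 genes called without CDCA replicate 3, 20 separated the groups when all 6 libraries were used and 14 did not. Those with overlap, chosen for naming after their values were seen, include Fmo5, a flavin monooxygenase, at 13.6, 9.93 and 11.1 TPM in CA and 4.03, 4.76 and 11.3 TPM in CDCA, and Bst1, an ectoenzyme of nucleotide metabolism, at 9.24, 5.68 and 7.50 TPM in CA and 2.11, 2.17 and 9.60 TPM in CDCA. For Fmo5, CDCA replicate 3 lay within the CA range, and for Bst1 above it. The calls of Lgals2, Gcg and Zg16 did not depend on leaving that library in or out, but each was lost in some other alternative: Zg16 in 3 of 14 (highest adjusted p 0.0764), Lgals2 in 2 (0.102) and Gcg in 1 (0.0687), by limma. Cyp24a1 was called in all 14. In the reference annotation a gene on the opposite strand also overlaps Zg16, Slc51a, Slc51b, Nr1i3, Lgr5, Mki67, Neurog3, Fabp2, Cyp2s1, Rnf43, Il17rb, Ddit3, Prelp, Cep162 and Rccd1, so their values are uncertain in the same way.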

How the data were processed

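RNA of 12 organoid libraries was quantified by the authors, who deposited TPM values per gene symbol. Salmon 1.8.0 and build GRCm39 are named per the submitters' processing notes, with no annotation or strand setting. TPM are shares of a total and keep no read depth, so a change in abundant RNA moves all other values.

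A minimum of 1 TPM in at least 3 of the 12 libraries was required, and values were taken as log2(TPM + 1). One fit of 4 group means used limma 3.58.1 (R 4.3.3) with trend and robust moderation, and CDCA minus CA was tested two-sided with Benjamini-Hochberg adjustment at 0.05. Summed levels were compared with exact permutation tests. The fit was tested on simulated data with noise drawn independently for each gene and library. That simulation held no shift shared by genes, as CDCA replicate 3 shows, so it lends no weight to the calls.

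The members, the 45 gene lists (845 genes, 712 of them tested) and the tests were chosen with earlier results of these data known. Genes named follow a rule: among called genes with an average of at least 1 and no overlap the 15 largest differences per direction, filled to 10 by smallest p, then 20 preselected genes and, per list, the 4 of smallest p. The text uses part of these and a few further list members. The report describes 21 lists. In 21 others with at least 5 tested members 0 genes were called, medians ran from -0.36 (villus tip genes) to 0.26 (Wnt targets), and of 381 memberships 38 were lower and 8 higher at an unadjusted p under 0.05. Overlaps came from GENCODE M21. Alternatives were no filter, a filter over the 6 libraries, a pseudocount of 0.1, median-ratio scaling, mitochondrial and rRNA rows left out, only the 6 libraries fitted, no trend or robust moderation, a replicate block and each library left out.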

Additional observations from a re-analysis of the deposited data

How the results depend on the processing

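Against 4 calls (1 higher, 3 lower), 9 genes were called (2 higher, 7 lower) when mitochondrial and rRNA rows were left out and the rest rescaled. The genes added were Cps1, higher in CDCA, and Sst, Gip, Fcgbp and Ghrl, lower in CDCA. When only the 6 compared libraries were fitted, 2 were called (1 higher, 1 lower), Cyp24a1 and Zg16. In that fit the limma adjusted p was 0.0738 for Lgals2 and 0.0687 for Gcg. Leaving out 1 library at a time gave 3 to 34 calls, 1 to 2 higher and 2 to 32 lower, with 34 only without CDCA replicate 3. With the replicate block 5 genes were called (1 higher, 4 lower). The numbers share no stated origin, and the deviations of same-numbered CA and CDCA libraries correlated at -0.145, 0.104 and 0.109 over genes. The median of the enteroendocrine hormones was -0.37 with no filter on low values. Leaving out 1 library, the median ran from -0.58 to -0.39 for goblet cell markers, from -0.15 to 0.021 for enteroendocrine transcription factors and from -0.23 to -0.075 for galectins. Among single genes that did not pass the test, the difference changed sign when 1 library was left out for Fabp6 (-0.33 to 0.77), Slc51b (-0.34 to 0.38), Lgals1 (-0.060 to 0.42), Il17rb (-0.27 to 0.054) and Chga (-0.069 to 0.076), and Chga was also at 0.00068 without mitochondrial and rRNA rows. The cause of these changes was not tested. Median-ratio scaling moved the median of all genes by 0.0067. It called 4 genes, with Gip (limma adjusted p = 0.0247) and without Zg16 (0.0764). With the nuclear copy Gm10925 counted, an alternative chosen after seeing the data, mitochondrial RNA was 15.9% in CA and 18.4% in CDCA (exact permutation p = 0.1). Depth is unknown, so low values such as those of Cyp24a1 in CA carry an error that cannot be stated.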

Other observations

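Wnt target genes, which mark the crypt, and villus tip genes, which mark the oldest enterocytes, lay on opposite sides of 0. Of 15 tested Wnt targets 0 were called by limma, 3 were higher and 0 lower at an unadjusted p under 0.05, and the median difference was 0.26, or 0.39 without CDCA replicate 3. Against the shared DMSO libraries the median was -0.37 for CA and -0.068 for CDCA. Nkd1, an inhibitor that Wnt signalling induces, was at 0.303, 0.782 and 0.597 TPM in CA and at 1.003, 1.15 and 0.941 TPM in CDCA (difference 0.39, limma adjusted p = 0.618), without overlap. Rnf43, a ligase that removes Wnt receptors, was at 24.7, 26.9 and 26.9 TPM in CA and at 36.7, 32.5 and 30.2 TPM in CDCA (difference 0.33, limma adjusted p = 0.681), also without overlap.

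Of 13 tested villus tip genes 0 were called, 4 were lower and 1 higher at an unadjusted p under 0.05, and the median difference was -0.36, or -0.53 without CDCA replicate 3. Against the shared DMSO libraries the median was 0.41 for CA and -0.052 for CDCA. Creb3l3, a transcription factor of lipid handling, was at 43.7, 23.1 and 33.1 TPM in CA and at 9.29, 9.01 and 22.1 TPM in CDCA (difference -1.31, limma adjusted p = 0.393, or 0.0251 without CDCA replicate 3). All CDCA libraries lay below CA, with CDCA replicate 3 close to the lowest CA library. Creb3l3 was not called when any other single library was left out. The member with an unadjusted p under 0.05 in the other direction was Fgf15, which is also an FXR target.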
